A study of Mus musculus with 12 samples.

Results

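The genes described here are 44 type I interferon-induced genes, taken by gene name from the deposited counts table of bulk RNA-seq on sorted CD4+ T cells of mice with and without Rinl. Each of the 44 names matched 1 of the 55487 genes in the table, and all 44 were among the 15905 genes with enough counts to be tested. The smallest count of any of them in any library was 67, for Ifi44. Naive cells (CD62L+CD44lo) and effector cells (CD62L-CD44hi) came from spleen and peripheral lymph nodes of wild-type (WT) and Rinl knockout (Rinl-KO) mice, 3 libraries in each of the 4 groups. The columns number the libraries through the series, and that numbering is used here: WT naive 1, 2 and 3, WT effector 4, 5 and 6, KO naive 7, 8 and 9, and KO effector 10, 11 and 12. The sources used here do not give the strain, age or sex of the mice, the altered part of Rinl, the cells in which it was altered or any treatment. No label ties the libraries to separate mice, so each p-value reflects the spread of these libraries, which may be technical. The comparisons asked how loss of Rinl, a protein of the RIN family of RAB5 activators, changed gene expression in each sorted population.

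Type I interferons are secreted antiviral cytokines that bind the receptor IFNAR1/IFNAR2, whose kinases JAK1 and TYK2 phosphorylate STAT transcription factors. STAT2 joins IRF9 in the complex ISGF3, which binds interferon-stimulated response elements (ISRE) in the promoters of many genes and turns them on. The induced proteins sense viral RNA and DNA, block steps of viral replication, conjugate the ubiquitin-like protein ISG15, and amplify or dampen the response itself. Resting lymphocytes keep a basal level of many of these transcripts, and in bulk RNA a change in the number of cells that carry a transcript cannot be told apart from a change in the RNA per cell.

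Values per library are CPM, counts scaled to library size after TMM normalisation. Rinl itself ranged from 286 to 299 CPM in WT naive and from 32.2 to 34.4 CPM in KO naive libraries. In effector cells its range was 437 to 463 CPM in WT and 45.8 to 49.4 CPM in KO. Total counts ranged from 11606251 to 24320247. Mitochondrially encoded genes took 1.02% to 1.60% of counts in each library. The summed CPM of 9 T cell markers was 6238 to 6446 in WT naive, 6089 to 6286 in KO naive, 6266 to 6418 in WT effector and 6191 to 6414 in KO effector libraries. Within a group, Pearson's r between libraries was 0.990 to 0.995 across genes, which are not independent replicates.

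The ISRE core was searched as GAAANNGAAA on both strands, with overlapping matches counted, in RefSeq promoter windows of the build GRCm38.p6 that run from 250 bases before to 50 bases after the start. Of the 44 genes, 34 had a window, and 15 of the 34 (44.1%) held the core. Among 9872 tested genes with a window, 378 (3.83%) held it, and among all 27025 genes with a window 3.99% did. The gamma-activated site core TTCNNNGAA, shown for contrast, was in 7 of the 34 (20.6%) and in 8.25% of the tested genes. The stretches below are shown because they belong to genes whose values are described next and because the pair Ifit3 and Ifit3b cannot be told apart by them. They read 5′ to 3′ on the strand of the gene, the capitals mark the core matches, matches that begin with TTTC are the core on the opposite strand, and all stretches lie before the RefSeq start.
Ifit1, chr19:34640765-34640833, plus strand: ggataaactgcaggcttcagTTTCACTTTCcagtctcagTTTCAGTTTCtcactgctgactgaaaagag
Ifit3, chr19:34583353-34583436, plus strand: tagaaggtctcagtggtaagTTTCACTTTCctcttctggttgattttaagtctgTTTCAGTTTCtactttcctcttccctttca
Ifit3b, chr19:34607749-34607832, plus strand: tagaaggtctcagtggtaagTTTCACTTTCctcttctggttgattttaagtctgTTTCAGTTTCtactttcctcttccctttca
Isg15, chr4:156200855-156200916, minus strand: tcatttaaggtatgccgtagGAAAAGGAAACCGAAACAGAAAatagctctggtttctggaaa
Oas1a, chr5:120907526-120907565, minus strand: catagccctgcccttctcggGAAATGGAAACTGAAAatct
Stat2, chr10:128270256-128270305, plus strand: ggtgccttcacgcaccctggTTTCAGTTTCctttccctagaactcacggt
Rsad2, chr12:26456543-26456592, minus strand: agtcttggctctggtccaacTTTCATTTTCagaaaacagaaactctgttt
Isg15 has 3 overlapping matches, which begin 78, 72 and 66 bases before its start, and Ifit1 has 2 separate ones 104 and 85 bases before its start. The 84 bases shown for Ifit3 and Ifit3b are identical. Usp18, Oas2, Mx1, Zbp1, Rtp4, Parp9, Parp14, Dhx58, Ifi27l2a and Tor3a were not matched to a window. The other 34 genes had 40 windows. For 33 of the 40, bases soon after the start were found in a GENCODE transcript of the gene. Which of the stretches shown belong to those 33 was not recorded.

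Levels between genes can be compared only per length, and the deposited FPKM were used for this. Whether these values divide by the gene length was not checked. In WT naive cells the means ran from 1.88 ± 0.390 FPKM for Mx1, 2.37 ± 0.527 for Rsad2 and 2.49 ± 0.169 for Ifi44 up to 117 ± 5.40 for Samhd1, 176 ± 3.44 for Sp100 and 349 ± 34.2 for Ifi27l2a (SD, n = 3). Samhd1 encodes a dNTP hydrolase that limits reverse transcription, Sp100 a nuclear body protein and Ifi27l2a a small membrane protein, while Mx1 encodes a dynamin-like GTPase against influenza virus and Rsad2 encodes viperin, a radical SAM enzyme. Zbp1, a sensor of Z-form nucleic acid, was at 77.9 ± 1.80 FPKM and Irf7, the transcription factor that drives interferon alpha genes, at 61.1 ± 1.94 FPKM. Many neighbours in this order lay within each other's spread, as with Usp18 at 23.7 ± 1.42 FPKM, Ifit1 at 21.8 ± 1.95 FPKM and Oas2 at 21.7 ± 1.35 FPKM.

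**Figure D1:**
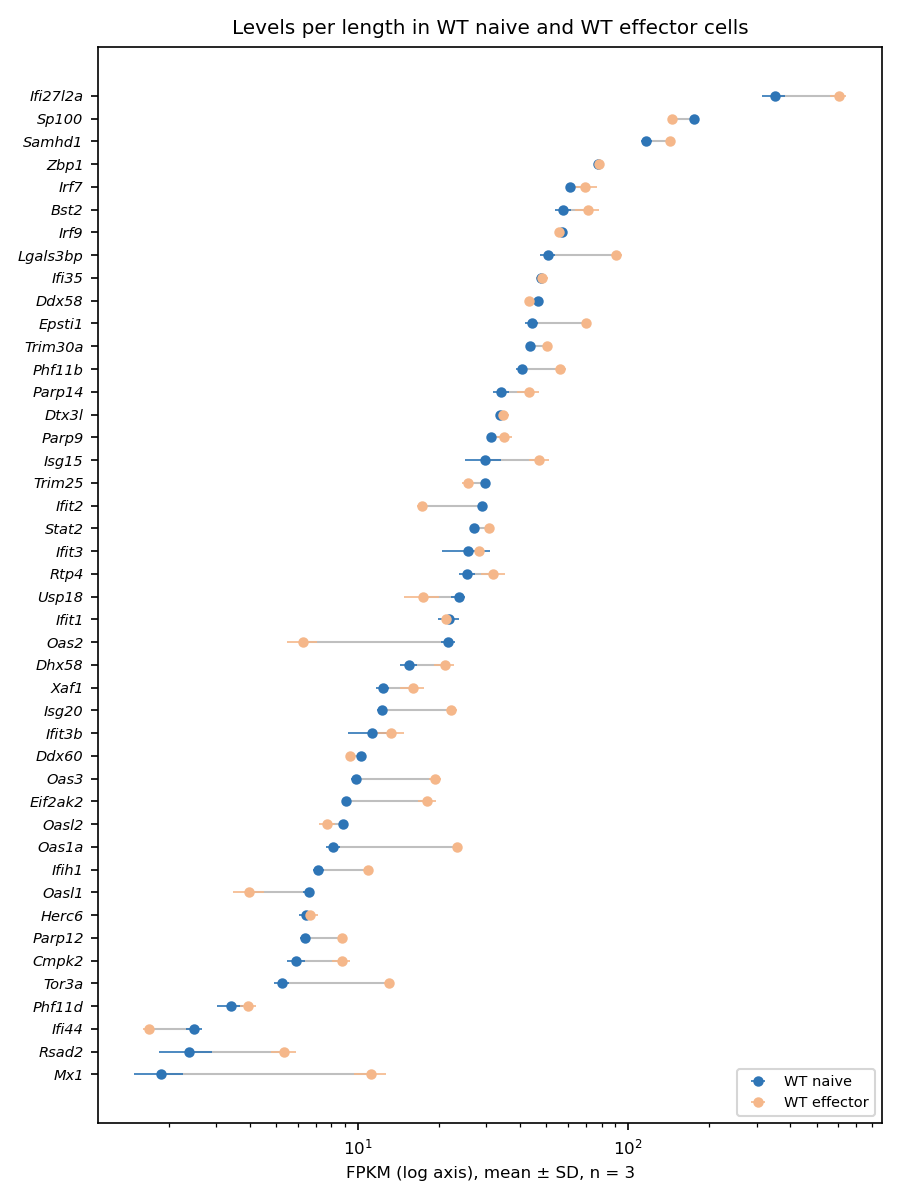
Mean level per length (FPKM, log axis) of the 44 genes in WT naive and WT effector cells, with bars for the SD over 3 libraries and grey lines joining the means of a gene. WT naive means run from 1.88 FPKM for Mx1 to 349 FPKM for Ifi27l2a, and Oas2 lies at 21.7 FPKM in naive and 6.28 FPKM in effector cells.

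In naive cells the interferon-induced genes had higher values in KO than in WT, and Mx1, Isg15 and Ifit3b had the largest changes among those that passed the test. The fitted log2 fold change was above 0 for 44 of 44, with a range of 0.02 to 0.75 and a median of 0.22, which is 1.16-fold. Over all tested genes the median log2 fold change was 0 and 49.9% lay above 0. By edgeR's quasi-likelihood test with Benjamini-Hochberg adjustment over all 15905 genes at 0.05, 15 of the 44 rose (34.1%) against 0.679% of all tested genes, and 0 fell, against 0.497%. At an unadjusted p under 0.05 the count was 38 of 44 (86.4%) against 11.9% of all tested genes. All 3 KO libraries lay above all 3 WT libraries for 37 of 44 (84.1%) against 10.7% of all tested genes, and below them for 0 of 44 against 9.72%. The 44 genes were chosen with earlier results of these data known. These contrasts with all genes, here and in effector cells, are therefore descriptions and not independent support.

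The 15 were Ifit1, Ifit3b, Isg15, Usp18, Oas3, Oasl2, Mx1, Zbp1, Irf7, Rtp4, Xaf1, Parp9, Parp14, Dtx3l and Cmpk2. The count depended on single libraries and on the fit: it was 5, 7, 5 and 4 without library 1, 3, 8 or 9. It was 25 when only the naive groups were fitted, 23 with no filter on low counts, and 3 with limma on log2 FPKM. Calls over all tested genes, in either direction, moved too, from 187 to 135, 126, 66 and 84 without library 1, 3, 8 or 9. They were 528 of 14579 tested genes with only the naive groups and 501 of 28299 with no filter. With limma on log2 FPKM they were 40 and 57 of 15905 at a pseudocount of 1 and 0.1. Ifit1, Oasl2 and Zbp1 were called under all 14 alternatives, and the median log2 fold change of the 44 stayed between 0.21 and 0.26.

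In effector cells 23 of the 44 rose in KO (52.3%) against 1.45% of all tested genes, and 0 fell, against 1.72%, by the same edgeR test. Ifi44, Usp18 and Oasl2 had the largest changes among them. The log2 fold change was above 0 for 42 of 44, against 50.7% of all tested genes, with a range of -0.16 to 1.02 and a median of 0.22 (1.17-fold). Over all tested genes the median was 0.002. At an unadjusted p under 0.05 the count was 36 of 44 (81.8%) against 16.1%. All KO libraries lay above all WT libraries for 32 of 44 (72.7%) against 9.18% of all tested genes, and below them for 1 of 44, Epsti1, against 8.73%.

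The 23 were Ifit1, Isg15, Isg20, Usp18, Oas1a, Oas2, Oas3, Oasl1, Oasl2, Ifi44, Rsad2, Zbp1, Irf9, Stat2, Rtp4, Parp9, Parp14, Dtx3l, Trim30a, Ifih1, Ifi27l2a, Cmpk2 and Ddx60. The count was 15, 13, 10 and 15 without library 5, 6, 11 or 12, and 12 when only the effector groups were fitted. It was 31, with 1 gene called lower, with no filter on low counts, and 12 and 10 with limma on log2 FPKM at a pseudocount of 1 and 0.1. Calls over all tested genes, 503 in the main fit, were 270, 267, 194 and 480 without library 5, 6, 11 or 12. They were 230 of 15184 tested genes with only the effector groups and 959 of 28299 with no filter. With limma on log2 FPKM they were 262 and 139 of 15905 at those pseudocounts. Ifit1, Isg20, Usp18, Oas1a, Oasl2, Ifi44, Stat2 and Ifih1 were called under all 14 alternatives, and the median log2 fold change of the 44 stayed between 0.20 and 0.24.

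Each KO library lay above the WT libraries of its cell type. Relative to the WT mean of each gene, the median of the 44 genes on the log2 CPM scale was 0.17, 0.26 and 0.24 in KO naive libraries 7, 8 and 9. WT naive libraries 1, 2 and 3 were at -0.019, 0.040 and -0.017. In effector cells the KO libraries 10, 11 and 12 were at 0.21, 0.23 and 0.21, and the WT libraries 4, 5 and 6 at -0.024, 0.023 and 0.009. The KO values did not overlap the WT values in either cell type, and the median over all tested genes lay between -0.003 and 0.009 in each of the 12 libraries. Each WT library is part of the WT mean it is compared with, which draws the WT values towards 0. The WT and KO spreads are therefore not alike. Libraries 8 and 9 had 44 of 44 genes above the WT naive mean and library 7 had 40. Among WT naive libraries, library 2 held the highest value for 22 of the 44 genes, library 1 for 16 and library 3 for 6.

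**Figure D2:**
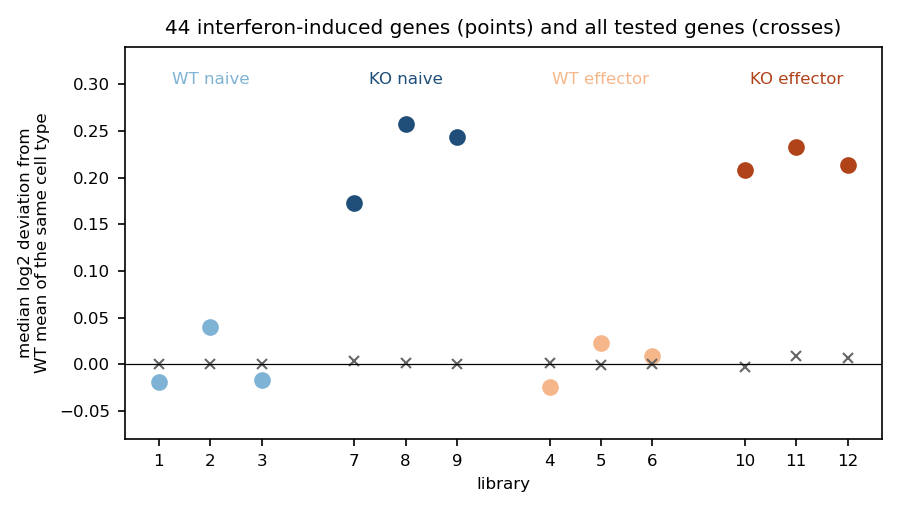
Median over the 44 genes of the log2 CPM difference from the WT mean of the same cell type, for each of the 12 libraries, with the median over all tested genes beside it. KO libraries lie between 0.17 and 0.26, WT libraries between -0.024 and 0.040, and all-gene medians between -0.003 and 0.009. Each WT library is part of its own WT mean, which draws its value towards 0.

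Changes below are log2 fold changes (log2FC) of KO over WT, unless effector over naive is named. Among the 3 genes of interferon signalling in the list, 1 rose in KO naive and 2 in KO effector cells. Irf7 was at 146, 153 and 144 CPM in WT naive and 187, 176 and 187 CPM in KO naive libraries, with log2FC 0.31 ± 0.0622 (SE, edgeR adjusted p = 0.013). All 3 KO naive libraries were above all WT naive libraries. In effector cells Irf7 was at 147, 182 and 174 CPM in WT effector and 173, 189 and 193 CPM in KO effector libraries, where the groups overlapped and the test did not pass (log2FC 0.14 ± 0.0626 SE, edgeR adjusted p = 0.26).

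Stat2, which encodes a subunit of ISGF3 and whose promoter stretch above holds 1 core match, was at 119, 118 and 120.4 CPM in WT naive and 130.1, 132 and 129 CPM in KO naive libraries. In effector cells Stat2 was at 138, 131 and 139.6 CPM in WT effector and 159.9, 166 and 154 CPM in KO effector libraries. The KO libraries were the higher ones in both cell types without overlap. The test passed in effector cells (log2FC 0.23 ± 0.0436 SE, edgeR adjusted p = 0.0034) and not in naive cells (log2FC 0.13 ± 0.0436 SE, edgeR adjusted p = 0.18). Irf9, the DNA-binding subunit of ISGF3, was at 176, 180.3 and 179.7 CPM in WT naive and 194, 201 and 205 CPM in KO naive libraries. In effector cells Irf9 was at 175, 174 and 172 CPM in WT effector and 192, 195 and 202 CPM in KO effector libraries. Again no KO library overlapped a WT library, with log2FC 0.18 ± 0.0415 (SE, edgeR adjusted p = 0.018) in effector cells and log2FC 0.16 ± 0.0409 (SE, edgeR adjusted p = 0.054) in naive cells.

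Of the 11 sensors of viral nucleic acid and enzymes of the oligoadenylate pathway, 3 rose in KO naive cells and 8 in KO effector cells. The OAS proteins make oligoadenylates on binding double-stranded RNA, which activate RNase L. Oasl2 was at 27.0, 29.0 and 27.4 CPM in WT naive and 39.4, 37.1 and 40.4 CPM in KO naive libraries. In effector cells Oasl2 was at 22.3, 25.1 and 25.3 CPM in WT effector and 33.7, 40.9 and 39.1 CPM in KO effector libraries. KO libraries were above WT libraries in both cell types without overlap, with log2FC 0.48 ± 0.0733 (SE, edgeR adjusted p = 7.9e-04) and log2FC 0.65 ± 0.0769 (SE, edgeR adjusted p = 1.9e-05).

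Oas1a, with 2 overlapping core matches right before its start, was at 15.3, 16.4 and 14.6 CPM in WT naive and 17.7, 17.8 and 18.9 CPM in KO naive libraries. The groups did not overlap but the test did not pass in naive cells (log2FC 0.22 ± 0.0718 SE, edgeR adjusted p = 0.16). In effector cells it was at 43.3, 43.95 and 45.6 CPM in WT effector and 60.7, 63.3 and 58.7 CPM in KO effector libraries, with log2FC 0.46 ± 0.0586 (SE, edgeR adjusted p = 4.3e-05) and no overlap. Oas2 was at 89.8, 89.7 and 79.9 CPM in WT naive and 94.3, 97.2 and 103 CPM in KO naive libraries. In effector cells Oas2 was at 21.5, 27.5 and 26.1 CPM in WT effector and 31.4, 33.7 and 32.3 CPM in KO effector libraries. It was low in effector cells of both genotypes, and KO exceeded WT without overlap in each, with log2FC 0.38 ± 0.0789 (SE, edgeR adjusted p = 0.0073) in effector and log2FC 0.18 ± 0.0627 (SE, edgeR adjusted p = 0.20) in naive cells. Oas3 rose in both, by log2FC 0.31 ± 0.0594 (SE, edgeR adjusted p = 0.0084) in naive and log2FC 0.21 ± 0.0555 (SE, edgeR adjusted p = 0.039) in effector cells.

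Zbp1, which triggers necroptosis on binding Z-form nucleic acid, was at 175, 167 and 169 CPM in WT naive and 209, 212 and 193 CPM in KO naive libraries. In effector cells Zbp1 was at 171, 169.8 and 171 CPM in WT effector and 191, 201 and 196 CPM in KO effector libraries. Its WT libraries were close together in both cell types and the KO libraries were all higher, with log2FC 0.27 ± 0.0442 (SE, edgeR adjusted p = 0.0019) and log2FC 0.20 ± 0.0447 (SE, edgeR adjusted p = 0.012). Oasl1, whose protein limits translation of Irf7 mRNA, was at 14.4, 15.4 and 14.2 CPM in WT naive and 19.0, 17.8 and 17.5 CPM in KO naive libraries. In effector cells Oasl1 was at 10.01, 7.76 and 8.72 CPM in WT effector and 10.9, 12.1 and 14.1 CPM in KO effector libraries. KO libraries were higher without overlap in both, with log2FC 0.47 ± 0.112 (SE, edgeR adjusted p = 0.021) in effector and log2FC 0.30 ± 0.0962 (SE, edgeR adjusted p = 0.15) in naive cells. The RNA helicase sensor gene Ifih1 (MDA5) rose in effector cells by log2FC 0.31 ± 0.0547 (SE, edgeR adjusted p = 0.0020) and had log2FC 0.20 ± 0.0574 (SE, edgeR adjusted p = 0.090) in naive cells. The other helicase sensor, Ddx58 (RIG-I), had log2FC 0.11 ± 0.0409 (SE, edgeR adjusted p = 0.26) in naive and log2FC 0.04 ± 0.0417 (SE, edgeR adjusted p = 0.70) in effector cells, and Trim25, its ubiquitin ligase, had log2FC 0.07 ± 0.0505 (SE, edgeR adjusted p = 0.66) and log2FC 0.07 ± 0.0517 (SE, edgeR adjusted p = 0.54). Neither passed the test. Ddx60, another helicase gene, rose in effector cells by log2FC 0.21 ± 0.0541 (SE, edgeR adjusted p = 0.033) and had log2FC 0.14 ± 0.0523 (SE, edgeR adjusted p = 0.22) in naive cells. Dhx58 (LGP2), a helicase that regulates these sensors, had log2FC 0.21 ± 0.0674 (SE, edgeR adjusted p = 0.15) in naive and log2FC 0.22 ± 0.0656 (SE, edgeR adjusted p = 0.064) in effector cells and did not pass.

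**Figure D3:**
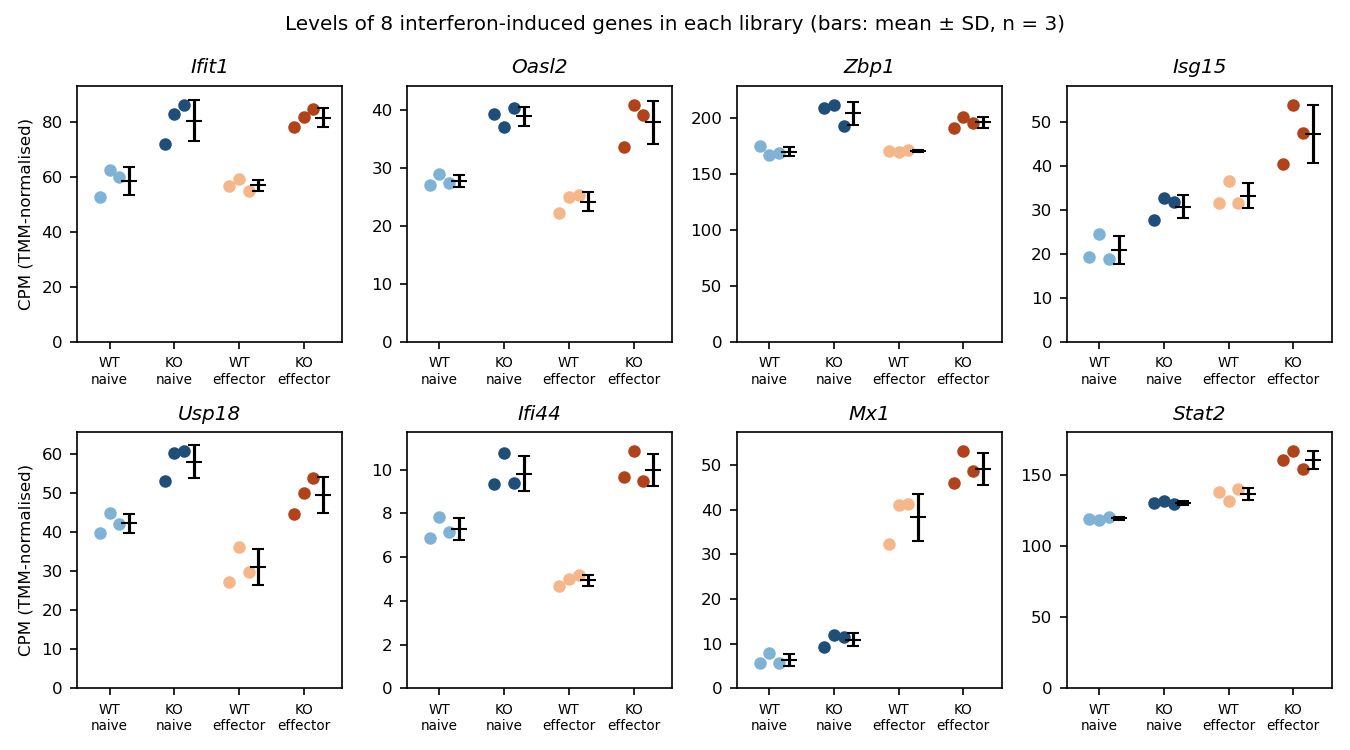
CPM (linear axis from 0) of 8 interferon-induced genes in each of the 12 libraries, 1 point per library, grouped as WT naive, KO naive, WT effector and KO effector, with the mean ± SD (n = 3) of each group drawn beside its points. For Ifit1 the KO naive libraries sit between 72.0 and 86.1 CPM and the WT naive libraries between 52.7 and 62.5 CPM, and for Mx1 both effector groups lie above both naive groups.

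The ISG15 system was represented by 3 genes, of which Isg15 and Usp18 rose in both cell types and Herc6, a ligase for ISG15 in mice, passed the test in neither (log2FC 0.07 ± 0.0789 SE, edgeR adjusted p = 0.80 and log2FC 0.21 ± 0.0802 SE, edgeR adjusted p = 0.18). Isg15 was at 19.3, 24.7 and 18.9 CPM in WT naive and 27.8, 32.8 and 31.9 CPM in KO naive libraries. In effector cells Isg15 was at 31.7, 36.6 and 31.7 CPM in WT effector and 40.6, 54.0 and 47.5 CPM in KO effector libraries. KO libraries were all higher, with log2FC 0.55 ± 0.120 (SE, edgeR adjusted p = 0.041) and log2FC 0.52 ± 0.114 (SE, edgeR adjusted p = 0.024). Usp18, the protease that removes ISG15 and binds IFNAR2 to dampen signalling, was at 39.8, 44.8 and 42.0 CPM in WT naive and 53.2, 60.4 and 60.7 CPM in KO naive libraries. In effector cells Usp18 was at 27.2, 36.2 and 29.8 CPM in WT effector and 44.7, 50.1 and 53.8 CPM in KO effector libraries. It rose without overlap of groups by log2FC 0.46 ± 0.0866 (SE, edgeR adjusted p = 0.011) in naive and log2FC 0.67 ± 0.0930 (SE, edgeR adjusted p = 5.2e-04) in effector cells.

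The 4 listed genes of the Ifit family lie in 1 stretch of chromosome 19 (GRCm38, chr19:34550694-34650009), and their proteins form complexes in which IFIT1 binds viral RNA without the host's cap methylation. Ifit1 was at 52.7, 62.5 and 60.0 CPM in WT naive and 72.0, 82.9 and 86.1 CPM in KO naive libraries. In effector cells Ifit1 was at 56.6, 59.0 and 54.9 CPM in WT effector and 77.9, 81.8 and 84.7 CPM in KO effector libraries. Every KO library exceeded every WT library, with log2FC 0.46 ± 0.0670 (SE, edgeR adjusted p = 7.7e-04) and log2FC 0.52 ± 0.0685 (SE, edgeR adjusted p = 1.1e-04). Its neighbour Ifit2 was at 109, 116 and 109 CPM in WT naive and 109, 118 and 113 CPM in KO naive libraries. In effector cells Ifit2 was at 66.1, 69.2 and 64.0 CPM in WT effector and 69.9, 65.0 and 76.0 CPM in KO effector libraries. The Ifit2 groups overlapped in both cell types, with log2FC 0.02 ± 0.0526 (SE, edgeR adjusted p = 0.93) and log2FC 0.08 ± 0.0572 (SE, edgeR adjusted p = 0.56).

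Ifit3b was at 19.8, 27.5 and 21.0 CPM in WT naive and 30.7, 32.5 and 34.1 CPM in KO naive libraries. In effector cells Ifit3b was at 25.3, 30.5 and 24.6 CPM in WT effector and 30.7, 30.6 and 35.9 CPM in KO effector libraries. Its KO libraries were above WT in both, and the test passed in naive cells (log2FC 0.50 ± 0.108 SE, edgeR adjusted p = 0.029) but not in effector cells (log2FC 0.27 ± 0.110 SE, edgeR adjusted p = 0.23). Ifit3 had log2FC 0.44 ± 0.111 (SE, edgeR adjusted p = 0.094) in naive and log2FC 0.26 ± 0.113 (SE, edgeR adjusted p = 0.29) in effector cells. The coding sequences of Ifit3 and Ifit3b are 99.1% identical, with 11 of 1212 bases different, so how their reads were split is uncertain and the call for Ifit3b and not Ifit3 cannot be assigned to a gene. Eif2ak2, which encodes the RNA-activated kinase PKR that halts translation, passed in neither cell type (log2FC 0.18 ± 0.0614 SE, edgeR adjusted p = 0.18 and log2FC 0.20 ± 0.0566 SE, edgeR adjusted p = 0.060).

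Of 6 restriction factors, 2 rose in naive and 3 in effector cells. Mx1 was at 5.63, 7.95 and 5.64 CPM in WT naive and 9.33, 11.9 and 11.5 CPM in KO naive libraries. In effector cells Mx1 was at 32.3, 41.1 and 41.3 CPM in WT effector and 45.9, 53.0 and 48.6 CPM in KO effector libraries. It had the largest log2 fold change of the 44 in naive cells, log2FC 0.75 ± 0.154 (SE, edgeR adjusted p = 0.024), and log2FC 0.37 ± 0.106 (SE, edgeR adjusted p = 0.077) in effector cells, where the groups also did not overlap. Isg20, an RNA exonuclease, was at 19.6, 20.2 and 18.7 CPM in WT naive and 21.4, 25.6 and 22.5 CPM in KO naive libraries. In effector cells Isg20 was at 37.0, 34.3 and 34.5 CPM in WT effector and 43.2, 52.4 and 44.5 CPM in KO effector libraries. It rose in effector cells by log2FC 0.41 ± 0.0772 (SE, edgeR adjusted p = 0.0034) and had log2FC 0.25 ± 0.0853 (SE, edgeR adjusted p = 0.20) in naive cells.

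Rsad2 was at 7.57, 11.3 and 8.21 CPM in WT naive and 11.5, 15.9 and 13.1 CPM in KO naive libraries. In effector cells Rsad2 was at 17.9, 21.5 and 21.8 CPM in WT effector and 26.2, 31.4 and 30.2 CPM in KO effector libraries. All KO libraries were above all WT libraries, with log2FC 0.52 ± 0.131 (SE, edgeR adjusted p = 0.039) in effector and log2FC 0.57 ± 0.152 (SE, edgeR adjusted p = 0.093) in naive cells. Cmpk2, a nucleotide kinase gene next to Rsad2 in the genome, was at 19.5, 20.5 and 17.5 CPM in WT naive and 24.1, 26.3 and 24.0 CPM in KO naive libraries. In effector cells Cmpk2 was at 27.3, 26.5 and 30.5 CPM in WT effector and 31.8, 34.6 and 37.7 CPM in KO effector libraries. It rose without overlap in both, by log2FC 0.36 ± 0.0818 (SE, edgeR adjusted p = 0.025) and log2FC 0.30 ± 0.0785 (SE, edgeR adjusted p = 0.038). Bst2, which encodes tetherin, had log2FC 0.19 ± 0.0672 (SE, edgeR adjusted p = 0.21) and log2FC 0.04 ± 0.0673 (SE, edgeR adjusted p = 0.85), and Samhd1 had log2FC 0.14 ± 0.0445 (SE, edgeR adjusted p = 0.16) and log2FC 0.02 ± 0.0445 (SE, edgeR adjusted p = 0.91). Both were among the more abundant members and neither passed.

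Parp9, Parp14 and Dtx3l, which encode ADP-ribosyltransferases or the ubiquitin ligase partner of PARP9, rose in both cell types, and Parp12 in neither (log2FC 0.08 ± 0.0831 SE, edgeR adjusted p = 0.79 and log2FC 0.25 ± 0.0795 SE, edgeR adjusted p = 0.089). Parp14 was at 273, 239 and 251 CPM in WT naive and 289, 316 and 310.4 CPM in KO naive libraries. In effector cells Parp14 was at 345, 289.5 and 329 CPM in WT effector and 372, 384 and 365 CPM in KO effector libraries. Its KO libraries were higher without overlap, by log2FC 0.26 ± 0.0582 (SE, edgeR adjusted p = 0.026) and log2FC 0.22 ± 0.0581 (SE, edgeR adjusted p = 0.040). Dtx3l was at 195, 194 and 194 CPM in WT naive and 212, 233 and 229.7 CPM in KO naive libraries. In effector cells Dtx3l was at 210.0, 191 and 198 CPM in WT effector and 235, 229.7 and 217 CPM in KO effector libraries, with log2FC 0.21 ± 0.0473 (SE, edgeR adjusted p = 0.024) and log2FC 0.19 ± 0.0477 (SE, edgeR adjusted p = 0.031). Parp9 was at 111, 112 and 113 CPM in WT naive and 123, 133 and 135 CPM in KO naive libraries. In effector cells Parp9 was at 132, 115 and 126 CPM in WT effector and 141, 142 and 144 CPM in KO effector libraries, with log2FC 0.22 ± 0.0502 (SE, edgeR adjusted p = 0.026) and log2FC 0.20 ± 0.0504 (SE, edgeR adjusted p = 0.033). Neither gene's groups overlapped. The Parp9 and Dtx3l gene models share 682 bases on opposite strands, and no source used here gives the strand setting of the counting, so reads of the pair may be shared. Parp9 also shares 5854 bases with the antisense gene Gm15564, which was at 35.8 ± 6.33 CPM in WT effector and 56.8 ± 30.2 CPM in KO effector cells (SD, n = 3), with log2FC 0.70 ± 0.636 (SE, edgeR adjusted p = 0.67). In naive cells Gm15564 was at 87.2 ± 52.2 CPM in WT and 92.9 ± 57.5 CPM in KO. In all, 15 of the 44 genes overlap another gene model, and their counts carry the same limit.

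Of the 12 remaining genes, 2 rose in naive and 4 in effector cells. Ifi44, a cytoplasmic protein gene of the response, was at 6.89, 7.84 and 7.13 CPM in WT naive and 9.33, 10.8 and 9.37 CPM in KO naive libraries. In effector cells Ifi44 was at 4.67, 5.0 and 5.16 CPM in WT effector and 9.68, 10.8 and 9.47 CPM in KO effector libraries. Its groups did not overlap, and its log2 fold change in effector cells, log2FC 1.02 ± 0.122 (SE, edgeR adjusted p = 1.9e-05), was the largest of the 44 there, beside log2FC 0.43 ± 0.111 (SE, edgeR adjusted p = 0.058) in naive cells. Xaf1, a pro-apoptotic gene, was at 30.4, 33.3 and 33.7 CPM in WT naive and 39.3, 41.3 and 43.0 CPM in KO naive libraries. In effector cells Xaf1 was at 41.9, 37.6 and 46.1 CPM in WT effector and 47.1, 48.9 and 51.9 CPM in KO effector libraries, without overlap. Its log2 fold change was log2FC 0.35 ± 0.0701 (SE, edgeR adjusted p = 0.011) in naive and log2FC 0.23 ± 0.0693 (SE, edgeR adjusted p = 0.077) in effector cells.

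Ifi27l2a was at 145, 175 and 169 CPM in WT naive and 175, 179.5 and 182 CPM in KO naive libraries, where groups overlapped. In effector cells Ifi27l2a was at 259, 294 and 291 CPM in WT effector and 330.2, 367 and 398 CPM in KO effector libraries, where KO was higher without overlap (log2FC 0.38 ± 0.0723 SE, edgeR adjusted p = 0.0087). Rtp4, a Golgi chaperone gene, rose in both (log2FC 0.32 ± 0.0717 SE, edgeR adjusted p = 0.026 and log2FC 0.32 ± 0.0710 SE, edgeR adjusted p = 0.016) and Trim30a in effector cells (log2FC 0.19 ± 0.0488 SE, edgeR adjusted p = 0.034). Epsti1 went the other way in effector cells, at 162, 171 and 159 CPM in WT effector and 154, 139 and 146 CPM in KO effector libraries, with all KO libraries below all WT libraries and log2FC -0.16 ± 0.0493 (SE, edgeR adjusted p = 0.077). Its naive value was log2FC 0.08 ± 0.0503 (SE, edgeR adjusted p = 0.61), and Sp100, the other gene with a value below 0, had log2FC -0.01 ± 0.0444 (SE, edgeR adjusted p = 0.95) in effector cells. Neither passed the test. Ifi35 had log2FC 0.20 ± 0.0531 (SE, edgeR adjusted p = 0.065) in naive and log2FC 0.09 ± 0.0545 (SE, edgeR adjusted p = 0.44) in effector cells. Lgals3bp, which encodes a secreted galectin-binding protein, had log2FC 0.16 ± 0.0539 (SE, edgeR adjusted p = 0.17) and log2FC 0.12 ± 0.0523 (SE, edgeR adjusted p = 0.25). Of the paralogs Phf11b and Phf11d, whose coding sequences are 72.5% identical, Phf11b had log2FC 0.20 ± 0.0599 (SE, edgeR adjusted p = 0.13) and log2FC 0.13 ± 0.0585 (SE, edgeR adjusted p = 0.25), and Phf11d had log2FC 0.31 ± 0.0976 (SE, edgeR adjusted p = 0.14) and log2FC 0.18 ± 0.0994 (SE, edgeR adjusted p = 0.41). None of these 4 passed the test in either cell type.

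**Figure D4:**
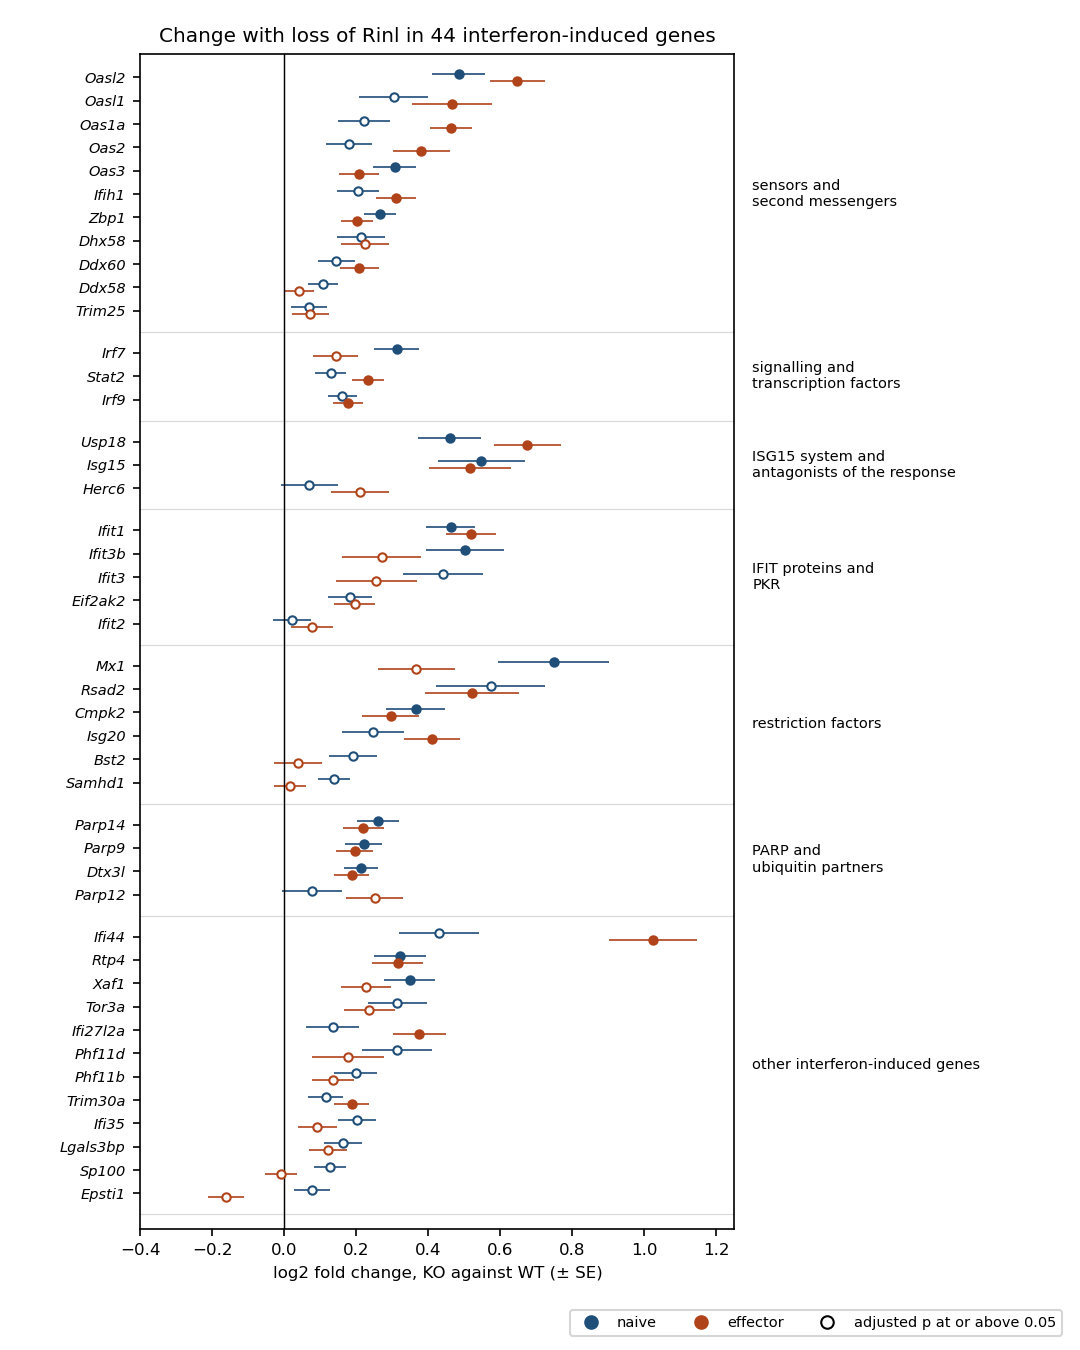
Log2 fold change of KO against WT (edgeR, bars for the SE) for each of the 44 genes in naive and effector cells, ordered by role, with genes called at an adjusted p under 0.05 drawn filled. All 44 naive values are above 0, and Sp100 and Epsti1 are below 0 in effector cells.

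The genes called in both cell types were 11: Ifit1, Isg15, Usp18, Oas3, Oasl2, Zbp1, Rtp4, Parp9, Parp14, Dtx3l and Cmpk2. Another 4 were called in naive cells alone and 12 in effector cells alone, and 17 in neither. Of all tested genes 0.679% rose in naive and 1.45% in effector cells. The share of all tested genes that rose in both was not counted. These differences between cell types did not pass a test of their own: for the difference of the KO effects, 0 of 44 were called by edgeR, against 0.145% of all tested genes, and 5 of 44 had an unadjusted p under 0.05 (11.4% against 9.19%). The largest difference of log2FC, effector minus naive, was that of Ifi44, 0.59 ± 0.166 (SE, edgeR adjusted p = 0.21), and the most negative that of Mx1, -0.38 ± 0.188 (SE, edgeR adjusted p = 0.57). No alternative analysis called any of the 44 for this difference.

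Effector cells differed from naive cells in WT for most of the genes, in both directions. In WT effector cells 25 of 44 were higher (56.8%, against 30.2% of all tested genes) and 10 lower (22.7%, against 25.9%) than in WT naive cells, so the count that fell was near the background. The log2 differences ran from -1.80 to 2.56 with a median of 0.21, against 0.01 over all tested genes. In KO cells 24 were higher (54.5%, against 31.6%) and 7 lower (15.9%, against 26.8%). These 2 comparisons share their naive and effector libraries with the KO comparisons above.

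The 4 largest rises from naive to effector cells in WT were those of Mx1 (log2FC 2.56 ± 0.138 SE, edgeR adjusted p = 3.5e-11), Oas1a (log2FC 1.51 ± 0.0678 SE, edgeR adjusted p = 2.7e-15), Tor3a (log2FC 1.32 ± 0.0793 SE, edgeR adjusted p = 7.2e-13) and Rsad2 (log2FC 1.16 ± 0.151 SE, edgeR adjusted p = 4.6e-06). Tor3a, an AAA+ ATPase gene of the torsin family, was at 16.3, 18.4 and 17.3 CPM in WT naive and 22.4, 22.4 and 19.7 CPM in KO naive libraries. In effector cells Tor3a was at 44.9, 41.6 and 43.3 CPM in WT effector and 45.9, 54.3 and 52.9 CPM in KO effector libraries. Its naive and effector libraries were far apart in both genotypes, while KO against WT passed in neither cell type (log2FC 0.31 ± 0.0822 SE, edgeR adjusted p = 0.063 and log2FC 0.24 ± 0.0706 SE, edgeR adjusted p = 0.070). The 4 largest falls from naive to effector cells in WT were those of Oas2 (log2FC -1.80 ± 0.0728 SE, edgeR adjusted p = 6.8e-16), Ifit2 (log2FC -0.75 ± 0.0556 SE, edgeR adjusted p = 3.7e-11), Oasl1 (log2FC -0.73 ± 0.109 SE, edgeR adjusted p = 4.3e-06) and Ifi44 (log2FC -0.56 ± 0.127 SE, edgeR adjusted p = 5.8e-04). Within the OAS family the directions thus split: Oas1a and Oas3 (log2FC 0.97 ± 0.0591 SE, edgeR adjusted p = 9.3e-13) were higher in WT effector cells, and Oas2, Oasl1 and Oasl2 (log2FC -0.20 ± 0.0793 SE, edgeR adjusted p = 0.036) were lower. Ifi44 was lower in effector cells of WT, while in KO its effector over naive value was log2FC 0.03 ± 0.106 (SE, edgeR adjusted p = 0.82).

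The genes of the surrounding pathway were counted from textbook lists. Of 20 type I and III interferon ligand genes, 0 had enough counts to be tested, 17 were at 0 in all 12 libraries, and the other 3 had 28 counts together, so their level was not measurable at this depth. Of 9 tested genes for the type I receptor and the steps next to it, 0 rose in naive cells and 1 in effector cells, the phosphatase gene Ptpn11, by log2FC 0.22 ± 0.0534 (SE, edgeR adjusted p = 0.026). The receptor genes Ifnar1 (log2FC 0.04 ± 0.0448 SE, edgeR adjusted p = 0.81 in naive and log2FC -0.01 ± 0.0456 SE, edgeR adjusted p = 0.94 in effector cells) and Ifnar2 (log2FC 0.15 ± 0.0521 SE, edgeR adjusted p = 0.21 and log2FC 0.06 ± 0.0506 SE, edgeR adjusted p = 0.60) did not pass. Of 12 adaptors, kinases and sensors upstream of interferon production, 0 rose in naive cells and 1, Irf5 (log2FC 0.37 ± 0.0871 SE, edgeR adjusted p = 0.018), in effector cells. None of these lists held a gene that fell. Over all tested genes, 0.679% rose in naive cells and 1.45% in effector cells, while 0.497% and 1.72% fell.

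Interferon gamma, the type II interferon made by T cells, acts through a receptor of its own and induces some of the same genes. Ifng was at 10.7 ± 3.47 CPM in WT effector and 8.19 ± 0.458 CPM in KO effector cells (SD, n = 3), with log2FC -0.37 ± 0.214 (SE, edgeR adjusted p = 0.43), and at 0.133 ± 0.113 CPM in WT naive cells. Of 11 tested genes that lean towards interferon gamma, 3 rose in KO naive cells: Irf1 (log2FC 0.25 ± 0.0461 SE, edgeR adjusted p = 0.0052), Gbp3 (log2FC 0.49 ± 0.0994 SE, edgeR adjusted p = 0.016) and Gbp5 (log2FC 0.33 ± 0.0692 SE, edgeR adjusted p = 0.014). In KO effector cells 2 rose, Gbp5 (log2FC 0.25 ± 0.0631 SE, edgeR adjusted p = 0.030) and the chemokine gene Cxcl10 (log2FC 0.69 ± 0.143 SE, edgeR adjusted p = 0.0070), and none fell in either. The shares of all tested genes that rose were 0.679% in naive and 1.45% in effector cells. Many genes of the interferon gamma list also respond to type I interferon, so the list does not separate the types.

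Markers of other cells and of handling were measured beside these counts. Plasma cell markers summed to 5.37 to 8.54 CPM in WT naive and 15.5 to 18.4 CPM in KO naive libraries, and to 66.9 to 71.9 CPM in WT effector and 84.2 to 88.5 CPM in KO effector libraries. Of the 4 tested, 1 rose in each comparison, Ighg2c, from 0.115 ± 0.135 to 5.36 ± 2.77 CPM in naive and from 0.757 ± 0.488 to 7.58 ± 3.75 CPM in effector cells (SD, n = 3, edgeR adjusted p = 0.038 and 0.039). Myeloid markers summed to 28.2 to 39.7 CPM in WT naive and 42.4 to 54.6 CPM in KO naive libraries, and to 42.1 to 66.2 and 53.2 to 77.3 CPM in the effector groups, with 0 of 9 called. Among all tested genes 0.679% were called higher in naive and 1.45% in effector cells. The plasma cell sum was higher in KO without overlap in both cell types, and the myeloid sum without overlap in naive cells. Over the tested genes of each list, the median log2FC was 1.21 in naive and 0.76 in effector cells for plasma cell markers, and 1.21 and 1.06 for myeloid markers. These medians are larger than the 0.22 of the interferon-induced genes, but they rest on 4 and 9 genes with low sums. The myeloid sums of the effector groups overlapped, and a link of these markers to the interferon-induced genes was not tested.

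The 8 markers of plasmacytoid dendritic cells, which make much type I interferon, summed to 9.78 to 12.5 CPM in WT naive and 9.72 to 12.97 CPM in KO naive libraries, which overlapped. In effector cells they summed to 78.7 to 86.2 CPM in WT and 61.4 to 77.7 CPM in KO, with 1 of 4 tested genes, Ccr9, lower in KO (log2FC -0.63 ± 0.151 SE, edgeR adjusted p = 0.041). Their defining marker Siglech had 7 counts in all 12 libraries together. B cell markers summed to 604 to 625 and 574 to 631 CPM in the naive groups and to 952 to 1130 and 1137 to 1377 CPM in the effector groups. The B cell sum was higher in KO effector than in WT effector libraries without overlap and overlapped in naive cells. Over its 9 tested genes the median log2FC was 0.77 in naive and 0.43 in effector cells, with none called higher and 1, Cd22, called lower, in effector cells. NK cell markers were lower in KO effector (71.8 to 88.1 CPM) than in WT effector libraries (99.9 to 106 CPM) and overlapped in naive cells. Of 11 tested genes of handling and heat shock, 2 rose in both comparisons, Fos and Dnajb1, against 0.679% and 1.45% of all tested genes. None of the 11 was called lower. The 13 listed genes summed to 651 to 727 and 707 to 753 CPM in the naive groups and 753 to 818 and 729 to 958 CPM in the effector groups. Over the 11 the median log2FC was 0.17 in naive and 0.18 in effector cells, near the 0.22 of the interferon-induced genes. The 2 markers of CD8 T cells summed to 19.5 to 20.8 and 19.8 to 21.8 CPM in the naive groups, which overlapped. In effector cells they summed to 5.52 to 6.70 CPM in WT and 7.19 to 8.04 CPM in KO, higher in KO without overlap, and the 1 tested gene was not called. The 7 markers of erythroid cells and platelets summed to 5.94 to 39.1 CPM in WT naive, 6.04 to 10.6 CPM in KO naive, 7.003 to 42.8 CPM in WT effector and 15.02 to 15.6 CPM in KO effector libraries, with 0 of 4 called and the highest sums in WT libraries 3 and 6. Over the 4 tested genes of this list the median log2FC was -0.94 in naive and -0.56 in effector cells. The part of all these marker lists in the interferon-induced counts was not tested.

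The 44 genes lie on 15 chromosomes, and 3 share chromosome 7 with Rinl, where the nearest, Isg20, is 50.1 Mb away. Of the 15 genes whose window holds the ISRE core, 4 rose in naive cells (median log2 fold change 0.20) and 9 in effector cells (0.23). Of the 19 whose window lacks it, 5 rose in naive cells (0.20) and 7 in effector cells (0.18). Of the 10 not matched to a window, 6 rose in naive cells (0.26) and 7 in effector cells (0.28). Among the 363 other tested genes with the core, 16 rose in naive cells (4.41%) and 23 in effector cells (6.34%), against 0.463% and 1.44% of the 9494 tested genes whose window lacks it. A match is a description of letters and not a bound site.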

How the data were processed

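Bulk RNA was sequenced from sorted naive and effector CD4+ T cells of WT and Rinl-KO mice, 3 libraries a group, and the library kit was a stranded mRNA kit, per the labels' protocols. Raw counts per gene, in whole numbers, were deposited for the 12 libraries, per the file headers. The authors also deposited FPKM values. For each of the 11921 genes checked, those with 20 or more counts in every library, they were the counts divided by 1 constant per gene and 1 factor per library. Whether the constant is the gene length was not checked. The submitters' processing notes list the builds GRCm38 and mm10 and the tools DESeq2 1.30.0, Picard and STAR, without saying what each was used for. No source used here gives the counter or its strand setting, so reads of overlapping or near-identical genes may be shared. Column names give the group and a library number.

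The main analysis of the counts used edgeR 4.0.16 in R 4.3.3. Genes were filtered by filterByExpr, scaled by TMM (factors 0.968 to 1.04), and fitted with 1 coefficient per group over all 12 libraries (glmQLFit, robust). P-values were adjusted by the Benjamini-Hochberg method over all 15905 genes at 0.05. The biological coefficient of variation was 5.21%. CPM values are TMM-scaled, and standard errors were derived from each fold change with its F statistic. Chi-square between libraries within a group was 2.26 to 5.92 per gene, above sampling noise, and each library counted as 1 replicate. The script was tested on simulated data. Promoter windows came from RefSeq (GRCm38.p6) and coding sequences from GENCODE M21 (GRCm38), with Python 3.11.15 and Biopython 1.88.

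The 44 genes and the lists of pathway and marker genes were chosen with earlier results of these data known. A gene of the receptor list is not reported here and was left out of its count. Values in every library are given for Mx1, Isg15, Ifit1, Irf7, Irf9, Stat2 and Oas2, for up to 3 called genes of each role by smallest p, and for the 4 largest rises and falls in WT effector against WT naive cells. Other members are given by their change. Epsti1 was given in each library because it alone went the other way without overlap, which was seen after its values were known. Alternatives were DESeq2 1.42.0 and its size factors, limma-voom, limma 3.58.1 on log2(FPKM + 1) and log2(FPKM + 0.1), no filter, a minimum mean of 5 CPM, fitting the compared groups alone, and leaving out each library.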

Additional observations from a re-analysis of the deposited data

How the results depend on the processing

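Under all 14 alternatives the median change of the 44 genes was above 0 in both KO comparisons. For KO naive cells, 15 genes were called, against 23 with no filter on low counts, 25 with only the compared groups fitted, and 3 with limma on log2(FPKM + 1) and 3 on log2(FPKM + 0.1). Leaving out 1 library gave 4 to 15, with 5, 7, 5 and 4 without library 1, 3, 8 or 9. For KO effector cells, 23 were called, against 12 with only the compared groups, 12 on log2(FPKM + 1) and 10 on log2(FPKM + 0.1), and leaving out 1 library gave 10 to 21, with 15, 13, 10 and 15 without library 5, 6, 11 or 12. Some alternatives moved calls over all tested genes too, and the number of genes tested moved with them. In KO naive cells 187 of 15905 genes were called. There were 501 of 28299 with no filter and 528 of 14579 with only the compared groups. In KO effector cells 503 of 15905 were called, 959 of 28299 with no filter (31 of the 44 genes higher) and 230 of 15184 with only the compared groups. The cause was not tested. The alternatives gave 672 values for genes chosen by the rule above. Most were KO changes, in both cell types, of the genes that the rule takes by name or by role. The rest were WT effector over WT naive changes, for the 4 largest rises and 4 largest falls. All of those WT changes kept their call. KO changes of genes chosen only for these rises or falls were not included. Of the 672 values, 547 stayed on the same side of the threshold, 110 lost the call, 15 gained it and 0 changed direction. Outside these values, some KO effector changes switched sign between alternatives. They were those of Bst2 (-0.037 to 0.11), Samhd1 (-0.0097 to 0.039) and Sp100 (-0.033 to 0.030), called under no alternative. In KO effector cells 1 gene was called lower with no filter and 1 without library 10, and 0 in KO naive cells under any alternative. No paired analysis was possible because the table's columns carry library numbers of the whole series and not the replicate numbers of the titles. The 3 libraries a group limit the precision, and the smallest count behind a value of the 44 genes was 67.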
